A study of Mus musculus with 18 samples.

Results

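The 37 genes of the mouse mitochondrial genome were followed across 18 RNA-seq libraries of alphaTC1 cells, a murine line derived from pancreatic alpha cells. They were every gene whose symbol starts with mt- in the deposited count tables, and they were 37 of 55487 genes listed. Of these, 13 code for proteins, 2 are ribosomal RNAs (rRNAs) and 22 are transfer RNAs (tRNAs). The mt- symbols cover every gene that the tables place on the mitochondrial chromosome. The choice did not use any measured value.

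The series asked what loss of Smndc1, a splicing factor, does to alpha cells. In the first experiment, cells carried an shRNA against Smndc1 (shSmndc1, 3 libraries) or the empty vector (EV, 3 libraries), and the series gives day 5 after transduction for the knockdown. In the second experiment, cells with the shRNA also carried RIP-mCherry, a red fluorescent reporter under the rat insulin promoter. They were sorted into reporter-positive cells (shSmndc1_RIP_pos, 4 libraries) and reporter-negative cells (shSmndc1_RIP_neg, 4 libraries). Their control was the empty vector group of the second experiment (EV_RIP, 4 libraries). By its label it also carried RIP-mCherry, and no sort is stated for it. All groups are 1 cell line. Nothing in the labels states that replicates came from separate cultures, so the p-values below reflect only how far these libraries spread, and part of that spread may be technical. The libraries were made from poly(A) RNA with a stranded mRNA kit.

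Mitochondrial DNA is a small circular genome present in many copies per cell. Its protein-coding genes all specify subunits of the respiratory chain or of ATP synthase: the Nd genes belong to complex I, mt-Cytb to complex III, the Co genes to complex IV, and mt-Atp6 and mt-Atp8 to ATP synthase. Both strands are transcribed into long precursors, in which tRNAs often separate the other genes and are cut out to release them. Most of the mRNAs then receive short poly(A) tails, and the rRNAs carry still shorter ones. In islet endocrine cells the respiratory chain supplies the ATP that couples nutrients to hormone secretion. In bulk RNA, fewer cells of a kind and less RNA per cell cannot be told apart, nor can fewer mitochondrial genomes and less transcription.

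The knockdown was checked first. Smndc1 was at 10.4, 9.52 and 10.5 CPM in shSmndc1, against 41.9, 40.2 and 35.1 CPM in EV (CPM being counts scaled by TMM to a common library size). The groups did not overlap, and Smndc1 fell by 1.94 on the log2 scale (SE 0.13, adjusted p = 0.00145, edgeR quasi-likelihood test with Benjamini-Hochberg adjustment over all genes). It also fell by 1.15 in positive cells against EV_RIP (adjusted p = 0.00384, edgeR). In negative cells the log2 difference from EV_RIP was -0.27 (adjusted p = 0.378, edgeR), so the libraries labelled as negative knockdown cells did not show a called loss of Smndc1. Total counts ran from 8084574 in negative replicate 3 to 103048766 in EV_RIP replicate 2. The 8 alpha cell markers summed to 5806 to 21010.2 raw CPM (CPM over the plain total count, with no TMM scaling) in a library, and the 7 beta cell markers to 49.8 to 94.3 raw CPM. The marker of PP cells, Ppy, was at 0 to 0.0633 raw CPM.

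Several mitochondrial genes have near-identical copies in the nuclear genome, so their reads can stand in either row of the counts. The search of all 141730 annotated transcripts found 7 genes that matched a mitochondrial gene at 99% identity or more over at least 100 bases. They lie side by side on the minus strand of chromosome 1, within chr1:24611535-24616197 of the GRCm38 build. The copies Gm10925, Gm28661, Gm28437, Gm10222 and Gm28439 are identical over the aligned stretch to mt-Atp6, mt-Co2, mt-Co3, mt-Nd4l and part of mt-Nd4. Gm29216 matches the 3′ part of mt-Co1 with the single difference A1066T, and Gm28438 matches mt-Nd3 with the single difference T3C, positions being counted from the first base of the mitochondrial gene. The first 61 bases of mt-Nd3 (chrM:9459-9519, plus strand) and of its copy (chr1:24613059-24613119, minus strand) show how little there is to tell them apart. The capital marks the one base that differs.
mt-Nd3: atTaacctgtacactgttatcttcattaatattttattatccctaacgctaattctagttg
Gm28438: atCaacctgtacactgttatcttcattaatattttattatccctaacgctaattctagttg

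For 3 of these pairs nearly all counts stood in the nuclear row. Over the 18 libraries, mt-Co2 held 5805 counts and Gm28661 held 5549915, which is 99.9% of the pair. In the same way mt-Atp6 held 8176 counts beside 9413391 in Gm10925, and mt-Co3 held 5967 beside 5354511 in Gm28437. The split was nearly constant across libraries, with the nuclear row holding between 99.8% and 99.9% of each of these 3 pairs in every library. The other pairs leaned to the mitochondrial row: the nuclear copy held 21.2% of the pair for mt-Co1, 9.03% for mt-Nd3, 0.360% for mt-Nd4l and 0.200% for mt-Nd4. How reads that match both places were assigned is not given in the sources used here. Identical sequences cannot be told apart by their reads, so the levels of these 7 genes are uncertain to this extent and are given below also with the copy added.

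**Figure D1:**
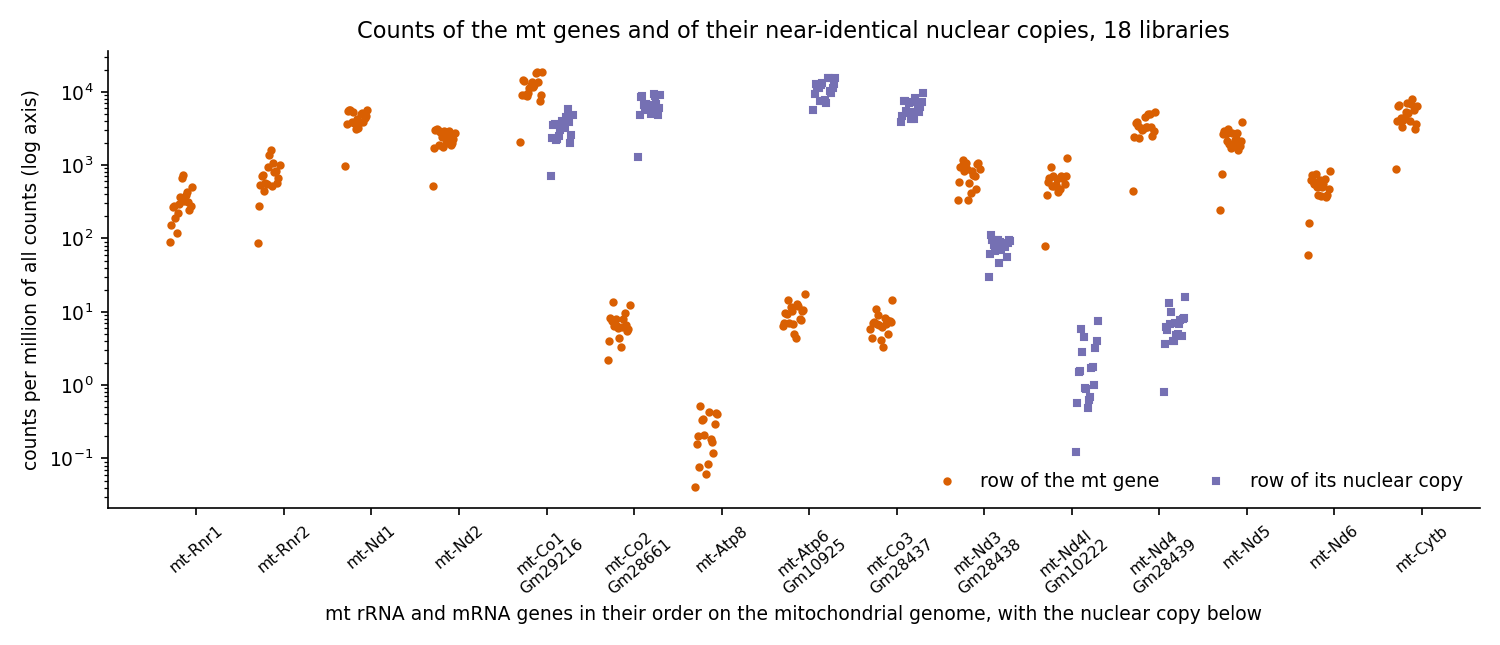
Raw CPM (log axis) of the 15 mt mRNA and rRNA genes in their genome order, with 1 point per library for the mt row (circles) and for its nuclear copy on chromosome 1 (squares). The rows of mt-Co2, mt-Atp6 and mt-Co3 lie far below those of their copies, mt-Atp8 lies lowest, and libraries at 0 are not drawn.

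The row of mt-Atp8, the small subunit that shares its mRNA with mt-Atp6, held only 199 counts in all. No annotated nuclear copy of it was found in the search, and unannotated copies were not searched. It lies between mt-Co2 and mt-Atp6, whose copies are neighbours on chromosome 1, and whether the stretch between these copies takes its reads was not tested. The last 43 bases of mt-Atp8 are also the first bases of mt-Atp6 on the same strand, so a read there belongs to both genes. The end of mt-Atp8 (chrM:7912-7969) and the start of mt-Atp6 (chrM:7927-7986) are printed for this reason, with the shared bases in capitals.
mt-Atp8 end: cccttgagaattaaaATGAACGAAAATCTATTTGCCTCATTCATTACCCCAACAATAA
mt-Atp6 start: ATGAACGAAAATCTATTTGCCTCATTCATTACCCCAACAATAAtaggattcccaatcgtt

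A further overlap joins opposite strands. mt-Nd6, the only mRNA gene on the minus strand, shares its last 14 bases with the end of mt-Nd5, and the whole of mt-Nd6 is complementary to plus-strand precursor RNA. The strand setting of the counting is not given in the sources used here, so sense and antisense reads at mt-Nd6 and at the tRNA genes cannot be told apart. The ends of mt-Nd5 (chrM:13521-13565, plus strand) and mt-Nd6 (chrM:13552-13596, minus strand) follow, each read in the direction of its own gene, with the shared bases in capitals.
mt-Nd5 end: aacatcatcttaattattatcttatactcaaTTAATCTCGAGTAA
mt-Nd6 end: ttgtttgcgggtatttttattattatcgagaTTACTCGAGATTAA

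With the nuclear copy added to each mitochondrial gene, and counts set against length, the mRNAs followed an order, given here without the sparsely counted mt-Atp8, at 1.95 ± 0.495 raw CPM per kilobase in EV (SD, n = 3). In EV, mt-Atp6 stood highest, at 15277 ± 3688 raw CPM per kilobase (SD, n = 3). The cytochrome oxidase subunits came next, with mt-Co2 at 9369 ± 928, mt-Co3 at 7561 ± 1341 and mt-Co1 at 7368 ± 393 CPM per kilobase. The ranges of mt-Co3 and mt-Co1 overlapped, and so did those of mt-Co2 and mt-Co3. Complex I subunits ran from 5213 ± 999 for mt-Nd1 down to 1226 ± 189 for mt-Nd6, and mt-Cytb stood between them at 3444 ± 473 CPM per kilobase. The rRNAs were below these mRNAs, at 370 ± 92.3 for mt-Rnr2 and 185 ± 54.4 for mt-Rnr1 on the same scale. In poly(A) libraries these rRNA values are not the rRNA content of the cells. The highest and lowest mRNAs kept their places in the other groups: mt-Atp6 averaged 13060 to 19330.2 CPM per kilobase and mt-Nd6 averaged 760 to 1084.

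Many of the tRNAs were sparsely counted. Among the 22, mt-Tf, mt-Tv, mt-Tk and mt-Tg had 0 counts in all 18 libraries, which allows up to 3 counts in each, or 0.0291 to 0.371 raw CPM. These bounds hold for the mitochondrial rows only. For mt-Tk and mt-Tg, which lie between genes with neighbouring copies on chromosome 1, reads falling in an unannotated copy were not tested. Counts were found in all 18 libraries for 12 tRNAs. The 3 with most counts per base lie on the minus strand: mt-Tp (proline tRNA, chrM:15356-15422), mt-Te (glutamate tRNA, chrM:14071-14139) and mt-Tq (glutamine tRNA, chrM:3772-3842). mt-Tp had 1559 counts per base over all libraries, mt-Te 248 and mt-Tq 231. Their sequences from the GENCODE transcripts are shown because mt-Tp carries one of the differences below.
mt-Tp: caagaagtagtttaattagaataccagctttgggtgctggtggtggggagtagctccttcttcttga
mt-Te: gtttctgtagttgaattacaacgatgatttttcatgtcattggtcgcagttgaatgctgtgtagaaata
mt-Tq: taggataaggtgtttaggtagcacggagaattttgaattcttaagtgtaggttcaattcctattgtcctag

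As a whole, the 37 genes took a few percent of the counts in every library but one. Their share was 2.44%, 2.81% and 4.76% in shSmndc1, against 3.20%, 2.49% and 3.18% in EV. In the second experiment it was 3.07%, 4.34%, 4.60% and 3.27% in positive cells, 2.99%, 3.00%, 3.94% and 3.11% in negative cells, and 0.587%, 2.34%, 3.87% and 3.98% in EV_RIP, for replicates 1 to 4. The groups overlapped in all 4 comparisons. EV_RIP replicate 1 stood far below every other library, with 289567 mitochondrial counts of 49345067 and a 95% Wilson interval of 0.585% to 0.589%, which covers counting error only.

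The mean share differed by 0.377 percentage points between shSmndc1 and EV (exact two-sided permutation test over libraries, p = 0.9). Positive cells stood 1.12 points above EV_RIP (exact permutation p = 0.257, adjusted p = 0.514 over the 4 comparisons), and 0.422 points above it without EV_RIP replicate 1. Negative cells stood 0.566 points above EV_RIP (exact permutation p = 0.686), and 0.137 points below the other 3 EV_RIP libraries, a difference of -0.137. The direction of the negative-cell difference therefore rests on EV_RIP replicate 1. Likewise, without shSmndc1 replicate 3 the difference between shSmndc1 and EV was -0.334 points. Positive minus negative cells gave 0.559 points (exact permutation p = 0.2), and the positive library was the higher in 4 of 4 pairs of equal replicate number. The smallest p that these designs allow is 0.1 for 3 against 3 libraries and 0.0286 for 4 against 4.

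With the 7 nuclear copies added, the share was higher in every library. It came to 4.86%, 5.69% and 8.67% in shSmndc1, against 5.76%, 4.57% and 6.08% in EV. It was 6.38%, 8.03%, 7.76% and 5.83% in positive cells, 6.0%, 5.15%, 6.33% and 5.09% in negative cells, and 1.75%, 4.48%, 7.13% and 7.16% in EV_RIP. The differences between groups were 0.934, 1.87, 0.514 and 1.35 points for shSmndc1 over EV, positive cells over EV_RIP, negative cells over EV_RIP and positive over negative cells. Without EV_RIP replicate 1 the positive-cell difference was 0.740 points and the negative-cell difference turned to -0.614, and without shSmndc1 replicate 3 the difference between shSmndc1 and EV turned to -0.198. With all libraries none passed the exact permutation test, the lowest p being 0.114 for positive against negative cells.

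**Figure D2:**
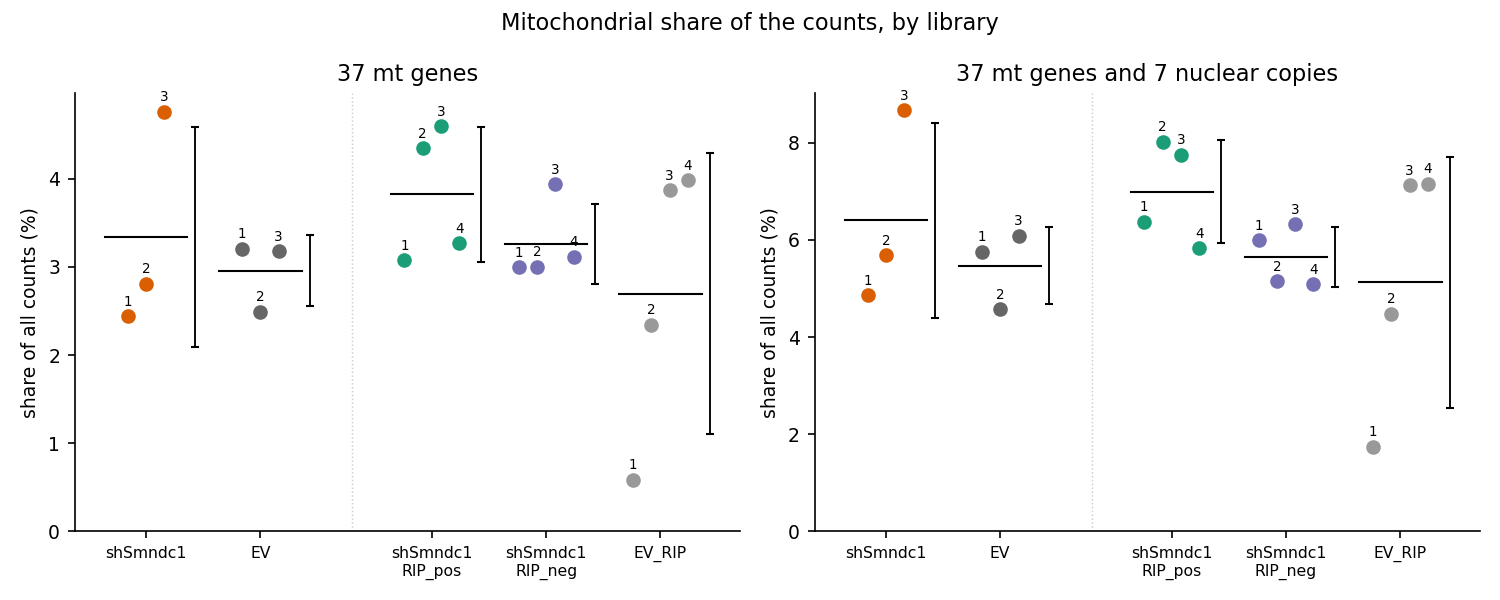
Share of all counts (%) held by the 37 mt genes (left) and by these with the 7 nuclear copies (right), with 1 numbered point per library, a line at the group mean and a bar of 1 SD beside it. EV_RIP replicate 1, at 0.587% and 1.75%, lies below all other libraries, and the groups overlap.

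The low library did not lose its mitochondrial counts evenly. Among the 26 mitochondrial genes with at least 100 counts over EV_RIP, 25 were lower in EV_RIP replicate 1 than in each of the other 3 EV_RIP libraries. For the 12 mRNAs measured, its raw CPM was 11.9% to 93.9% of the mean of the others, with a median of 18.2%. The exception was the sparsely counted mt-Co3 row, at 93.9%, while the row of its nuclear copy Gm28437 was at 59.3%. Some of the higher values lay next to each other on the genome: Gm10925, the copy of mt-Atp6, was at 50.0%, Gm28437 at 59.3% and mt-Nd3 at 39.9%. On either side, Gm28661, the copy of mt-Co2, was at 17.6% and mt-Nd4l at 14.3%. The lowest mRNAs were mt-Nd5 and mt-Nd6, both at 11.9%. The rRNAs were at 39.2% for mt-Rnr1 and 17.2% for mt-Rnr2. The 12 tRNAs ranged from 2.46% to 49.3%, and the highest was mt-Tp. Both mt-Rnr1 and mt-Tp lie outside the stretch from mt-Atp6 to mt-Nd3, so the higher values were not confined to it. With 1 library, these percentages describe that library and have no replicate. Its Rn7sk, a nuclear RNA that is not polyadenylated, stood at 13.8 raw CPM, against 5.18 to 12.1 raw CPM in the other EV_RIP libraries. Rpph1, a further RNA of this kind, stood within their range, at 0.932 raw CPM against 0.320 to 1.32. Any part of such RNA in the low share was not tested.

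**Figure D3:**
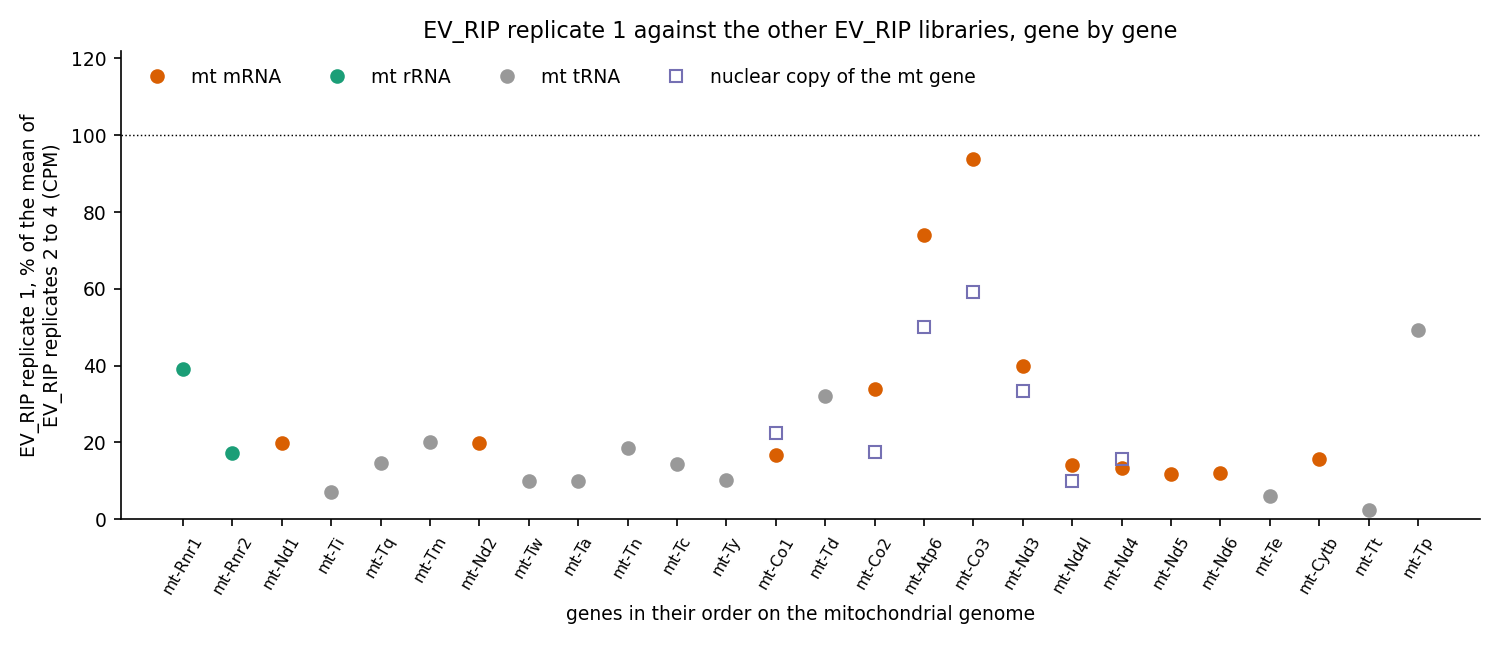
Raw CPM in EV_RIP replicate 1 as a percentage of the mean of EV_RIP replicates 2 to 4, for the 26 mt genes with at least 100 counts (circles) and for the 7 nuclear copies (open squares), in genome order. Most genes lie near or below 20%, and the stretch of mt-Atp6, mt-Co3 and mt-Nd3 lies higher, as do mt-Rnr1 and mt-Tp outside it.

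Gene by gene, Smndc1 knockdown in the first experiment left no mitochondrial gene past the threshold. Of all 18202 genes tested, 14.7% were called at an adjusted p under 0.05, 1315 higher and 1366 lower. Among the mitochondrial genes 26 passed the filter on low counts (13 mRNAs, 2 rRNAs and 11 tRNAs), and 0 of these 26 were called by edgeR, with 2 at an unadjusted p under 0.05. DESeq2 called 1 of them, mt-Rnr1. The mRNAs spread over log2 fold changes of -0.29 to 0.32, with a median of -0.06, and 6 of 13 were positive. Over all mitochondrial genes tested the median was -0.03, turning to 0.02 with total counts as scaling, and over all genes it was -0.00290. Single libraries moved it further, to -0.27 when shSmndc1 replicate 3 was left out, -0.18 when EV replicate 2 was and 0.14 when shSmndc1 replicate 1 was. The intervals are wide: for mt-Co1, the catalytic subunit of complex IV, the log2 fold change was 0.32 with a 95% interval of -0.35 to 1.00.

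The small rRNA came closest. mt-Rnr1 (chrM:70-1024), the RNA of the small mitochondrial ribosomal subunit, was at 249, 278 and 474 CPM in shSmndc1, against 187, 125 and 222 CPM in EV. All 3 knockdown libraries lay above all 3 controls. The log2 fold change was 0.91 (SE 0.28, adjusted p = 0.0573, edgeR), just short of the threshold. mt-Rnr2 (chrM:1094-2675), the RNA of the large subunit, was at 590, 662 and 941 CPM in shSmndc1, against 738, 463 and 574 CPM in EV. These groups overlapped, and the log2 fold change was 0.30 (adjusted p = 0.376, edgeR). The highest value of both rRNAs was in shSmndc1 replicate 3. That library also had the most Rn7sk of the experiment, at 9.35 raw CPM, against 2.56 to 4.29 in the other 5 libraries. Histone mRNAs were highest there too, at 5.51 raw CPM against 2.67 to 3.03. Rpph1 was not, at 0.134 raw CPM against 0.123 to 0.507. Without shSmndc1 replicate 3 the mt-Rnr1 log2 fold change was 0.56 (adjusted p = 0.0960, edgeR). Without shSmndc1 replicate 1 it was 1.08 and past the threshold (adjusted p = 0.0318, edgeR). The part of RNA without a poly(A) tail in the value was not tested. In the fit without shSmndc1 replicate 3, mt-Nd6, mt-Te and mt-Tq fell, by 0.57, 1.23 and 0.65 on the log2 scale (adjusted p = 0.0279, 0.0236 and 0.0486, edgeR). With all libraries they were at -0.23, -0.67 and -0.36 and were not called.

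In negative cells the small rRNA was the one mitochondrial gene past the threshold. mt-Rnr1 was at 295, 349, 643 and 686 CPM in negative cells, against 93.3, 155, 278 and 292 CPM in EV_RIP. The lowest negative library lay just above the highest EV_RIP library. mt-Rnr1 rose by a log2 fold change of 1.27 (SE 0.33, adjusted p = 0.0250, edgeR), the only call among the 26 mitochondrial genes tested, 12 of them mRNAs and 12 tRNAs. Over all 18897 genes 13.9% were called, 8.17% higher and 5.69% lower; these are 1544 and 1076 genes, against 2111 and 667 with total counts as scaling. mt-Rnr2 was at 569, 911, 1353 and 1497 CPM in negative cells, against 89.8, 281, 557 and 753 CPM in EV_RIP. Its log2 fold change was 1.36, but the groups overlapped and the call was missed (SE 0.47, adjusted p = 0.0664, edgeR). Of the 12 mRNAs, 7 were positive and 5 negative, between -0.44 and 0.30, with no call.

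The mt-Rnr1 call in negative cells was lost in 4 of the 8 fits that left out 1 library, while its fold change stayed between 1.04 and 1.49. It was at 1.04 without EV_RIP replicate 1 (adjusted p = 0.0613, edgeR). Without negative replicate 2, 3 or 4 it was at 1.41, 1.11 and 1.06 (adjusted p = 0.0511, 0.0708 and 0.0981, edgeR), fits in which calls over all genes also dropped, to 392, 1094 and 159. Without negative replicates 3 and 4 together it was at 0.65 (adjusted p = 0.395, edgeR). Rn7sk, which has no poly(A) tail, differed between the negative libraries. It was at 4.45, 19.4, 166 and 48.1 raw CPM for replicates 1 to 4, against 5.18 to 13.8 raw CPM in EV_RIP. Rpph1 had a lower median in negative cells, at 0.368 raw CPM (range 0.0772 to 1.48), against 0.959 (range 0.320 to 1.32) in EV_RIP. Histone mRNAs, most of which lack a poly(A) tail, were at 10.4 and 10.7 raw CPM in negative replicates 3 and 4, against 2.07 to 4.97 raw CPM in EV_RIP. mt-Rnr1 and mt-Rnr2 were highest in the same 2 libraries, and the part of such RNA in these values was not tested.

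In positive cells the one called gene was the proline tRNA. mt-Tp was at 161, 175, 237 and 131 CPM in positive cells, against 45.0, 58.4, 120 and 98.2 CPM in EV_RIP. Every positive library lay above every EV_RIP library. mt-Tp rose by a log2 fold change of 1.13 (SE 0.25, adjusted p = 0.0108, edgeR), 1 of 26 mitochondrial genes, where 17.4% of all genes were called, 8.47% higher and 8.92% lower (1600 and 1686 genes, against 1894 and 1332 with total counts as scaling). It stayed past the threshold in each of the 18 alternatives tried, with adjusted p between 0.000281 and 0.0366, and at 0.95 (adjusted p = 0.0259, edgeR) without EV_RIP replicate 1. mt-Tp in negative cells was at 142, 124, 128 and 139 CPM, also above every EV_RIP library, with a log2 fold change of 0.73 that was not called (adjusted p = 0.0659, edgeR). In the first experiment it was at 104, 121 and 159 CPM in shSmndc1, against 118, 106 and 154 CPM in EV, a log2 fold change of 0.03. The difference between the effects of the first experiment and of positive cells was -1.09 (unadjusted p = 0.00772, adjusted p = 0.998, edgeR interaction), so it is not shown that they differ. Other signs set positive cells apart from EV_RIP as well. Rn7sk stood at 2.41 to 4.79 raw CPM in positive cells, against 5.18 to 13.8 in EV_RIP, and Malat1, a nuclear RNA, at 291 to 667 raw CPM, against 106 to 276. The 3 duct markers summed to 28.5 to 71.9 raw CPM in positive cells, against 1.76 to 10.6 in EV_RIP, nearly all of it Spp1, while Krt19 was at most 0.176 raw CPM and Cftr was at 0 in positive cells. The 8 alpha markers summed to 16085 to 21010.2 raw CPM in positive cells, against 8773 to 13097 in EV_RIP. The part of these in the mt-Tp value was not tested. The comparisons of positive and negative cells share the EV_RIP libraries and are not independent of each other.

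The other members in positive cells were not called. mt-Rnr1 was at 325, 387, 420 and 311 CPM in positive cells, again above all EV_RIP libraries, with a log2 fold change of 0.82 (SE 0.33, adjusted p = 0.0919, edgeR). mt-Rnr2, at 519, 1072, 789 and 804 CPM, overlapped EV_RIP and was at 0.92 (adjusted p = 0.181, edgeR). Of the 12 mRNAs, 11 were positive, between -0.11 for mt-Nd3 and 0.59 for mt-Nd4. The median over the 26 genes was 0.43 in positive cells and 0.20 in negative cells, where the median of all genes was 0.00114 and -0.00896. These mitochondrial medians moved with the control libraries: they were 0.17 and -0.13 without EV_RIP replicate 1, 0.70 and 0.46 without EV_RIP replicate 3, and 0.84 and 0.50 without EV_RIP replicate 4. In the fit of positive cells without EV_RIP replicate 1 mt-Tq fell by 0.90 on the log2 scale (adjusted p = 0.0414, edgeR). With all libraries mt-Tq was at 10.9, 17.6, 19.8 and 15.6 CPM in positive cells, against 4.34, 18.8, 32.4 and 39.5 CPM in EV_RIP, and at -0.57 was not called.

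**Figure D4:**
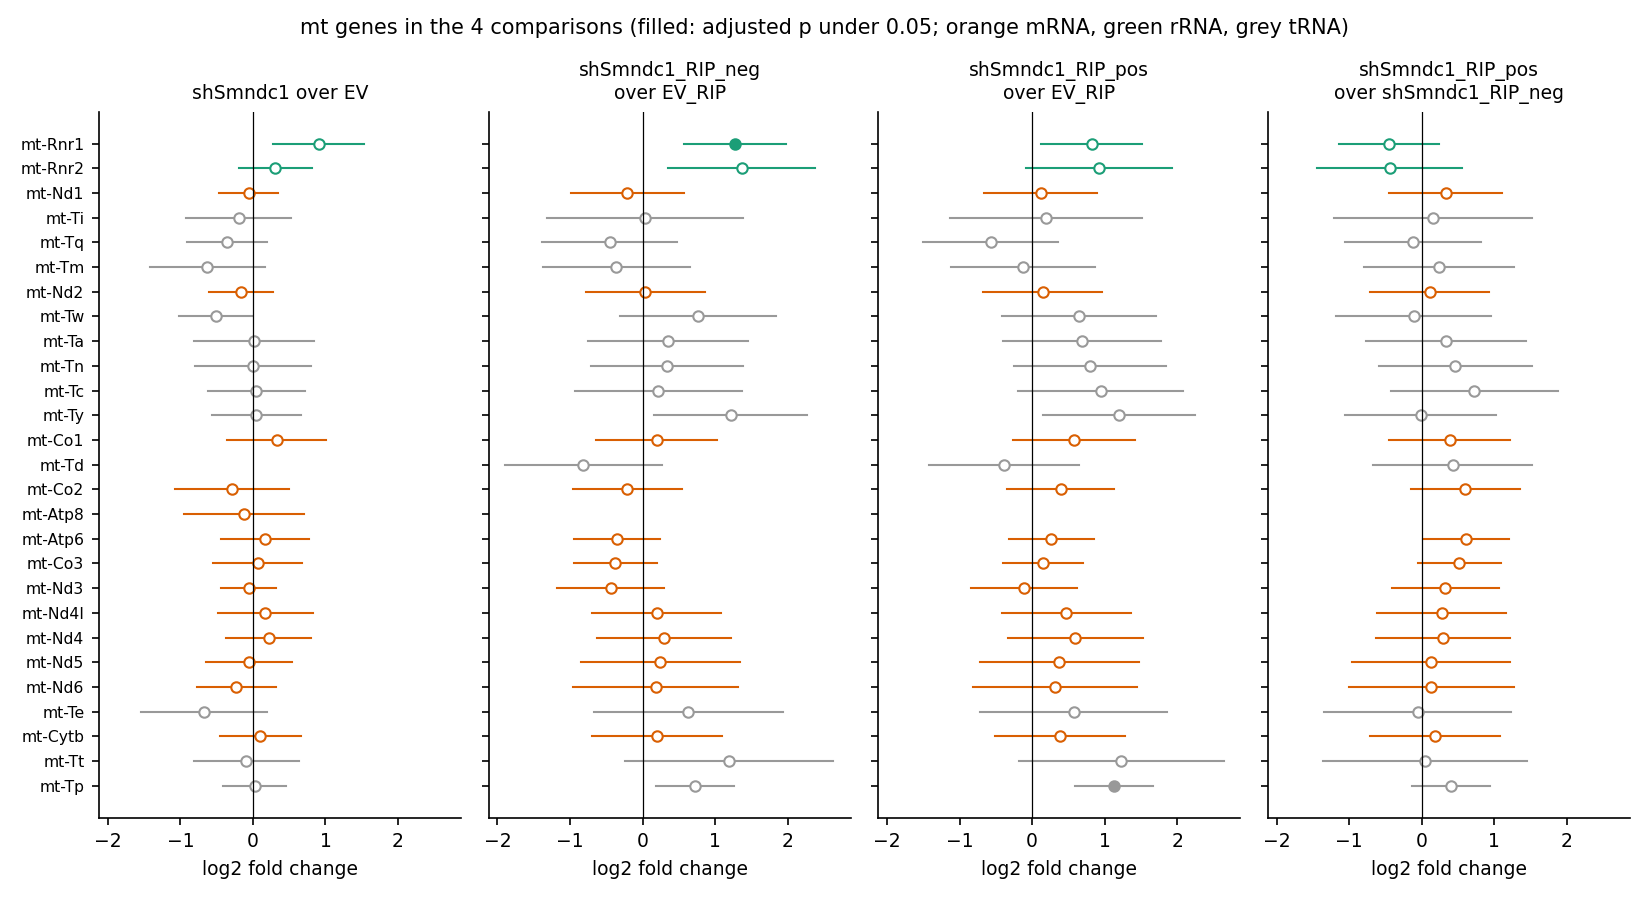
Log2 fold changes (edgeR) of the mt genes that passed the filter on low counts, with 95% intervals, in the 4 comparisons, with genes in genome order. Filled points mark the only adjusted p under 0.05, mt-Rnr1 in negative cells and mt-Tp in positive cells, and in the last panel every mRNA lies right of 0 and both rRNAs left of it.

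Positive cells were compared with negative cells directly, to ask what separates cells given the shRNA that turned the reporter on from those that did not. In the unpaired fit 0% of the 18897 genes were called, and 0 of 26 mitochondrial genes, with 1 of these (mt-Atp6) and 2314 of all genes at an unadjusted p under 0.05. DESeq2 called 292 genes and no mitochondrial gene. All 12 mRNAs tested had positive log2 fold changes, from 0.11 to 0.61, also under each other scaling tried, and both rRNAs had negative ones, -0.45 for mt-Rnr1 and -0.44 for mt-Rnr2. Libraries of equal number deviated together across genes, with correlations of 0.751, 0.502, 0.283 and 0.549, and were taken as pairs. Positive replicate 4 and negative replicate 2, of unequal number, also reached 0.494, above the 0.283 of replicate 3. The other unequal numbers ran from -0.640 to 0.217. No label states a pairing, so the paired results below rest on this choice.

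With the pairing in the fit of these 8 libraries, 8.43% of 17994 genes were called, 3.71% higher and 4.72% lower. Among the 26 mitochondrial genes 2 were then called, and both are ones whose reads stand mostly in a nuclear row. mt-Atp6 rose by a log2 fold change of 0.68 (SE 0.15, adjusted p = 0.0148) and mt-Co3 by 0.54 (SE 0.16, adjusted p = 0.0477, both by edgeR with the replicate block). The rows that hold nearly all counts of these pairs are identical in sequence over the aligned stretch, so they are no independent check. Gm10925 rose by 0.56 (adjusted p = 0.0227) and Gm28437 by 0.44 (adjusted p = 0.0304, edgeR, replicate block). Gm10925 was at 15389, 15640, 10096 and 9335 CPM in positive cells, against 13498, 7168, 7623 and 6540 CPM in negative cells. All 4 rows were higher in the positive library in 4 of 4 pairs, a mitochondrial row and its copy not being independent of each other. With the block and all 12 libraries in the fit, 78 genes and no mitochondrial gene were called, so the call depends on which libraries estimate the spread.

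The other mRNAs in the paired fit had log2 fold changes from 0.12 for mt-Nd2 to 0.60 for mt-Co2. At an unadjusted p under 0.05 (edgeR, replicate block) were 8 of the 12 mRNAs, against 4461 of all 17994 genes. The 8 include mt-Co2, mt-Atp6 and mt-Co3, for which nearly all counts of the pair stand in the nuclear row. The rRNAs were at -0.36 for mt-Rnr1 and -0.39 for mt-Rnr2 (adjusted p = 0.195 and 0.121, edgeR, replicate block). mt-Tp was at 0.37 (adjusted p = 0.0864). Among the tRNAs 8 of 12 were positive and none was called. Smndc1 itself was 0.86 lower in positive cells, a log2 fold change of -0.86 (adjusted p = 0.000954, edgeR, replicate block).

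The composition of the mitochondrial counts does not depend on library scaling, so 3 ratios were compared in each library. Mitochondrial rRNA stood at 3.51, 3.48 and 3.27 counts per 100 mitochondrial mRNA counts in shSmndc1, against 2.99, 2.34 and 2.59 in EV. These groups did not overlap (difference 0.779, exact permutation p = 0.1, the smallest possible, adjusted p = 0.229 over the 12 ratio tests). It stood at 2.81, 3.49, 2.76 and 3.64 in positive cells and 2.95, 4.63, 5.54 and 8.10 in negative cells, against 3.16, 1.88, 2.14 and 2.53 in EV_RIP. The differences from EV_RIP were 0.746 for positive cells (exact permutation p = 0.114) and 2.88 for negative cells (exact permutation p = 0.0571). Without negative replicates 3 and 4 the negative-cell difference was 1.36. Positive cells were below negative cells by a mean difference of -2.13 (exact permutation p = 0.0857) and lower in 4 of 4 pairs, for which the paired sign-flip test cannot go below 0.125. The adjusted p was 0.229 in each of these comparisons. Without EV_RIP replicate 1 the rRNA ratio of positive cells stood 0.990 above EV_RIP (exact permutation p = 0.0286, before adjustment and the smallest possible).

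**Figure D5:**
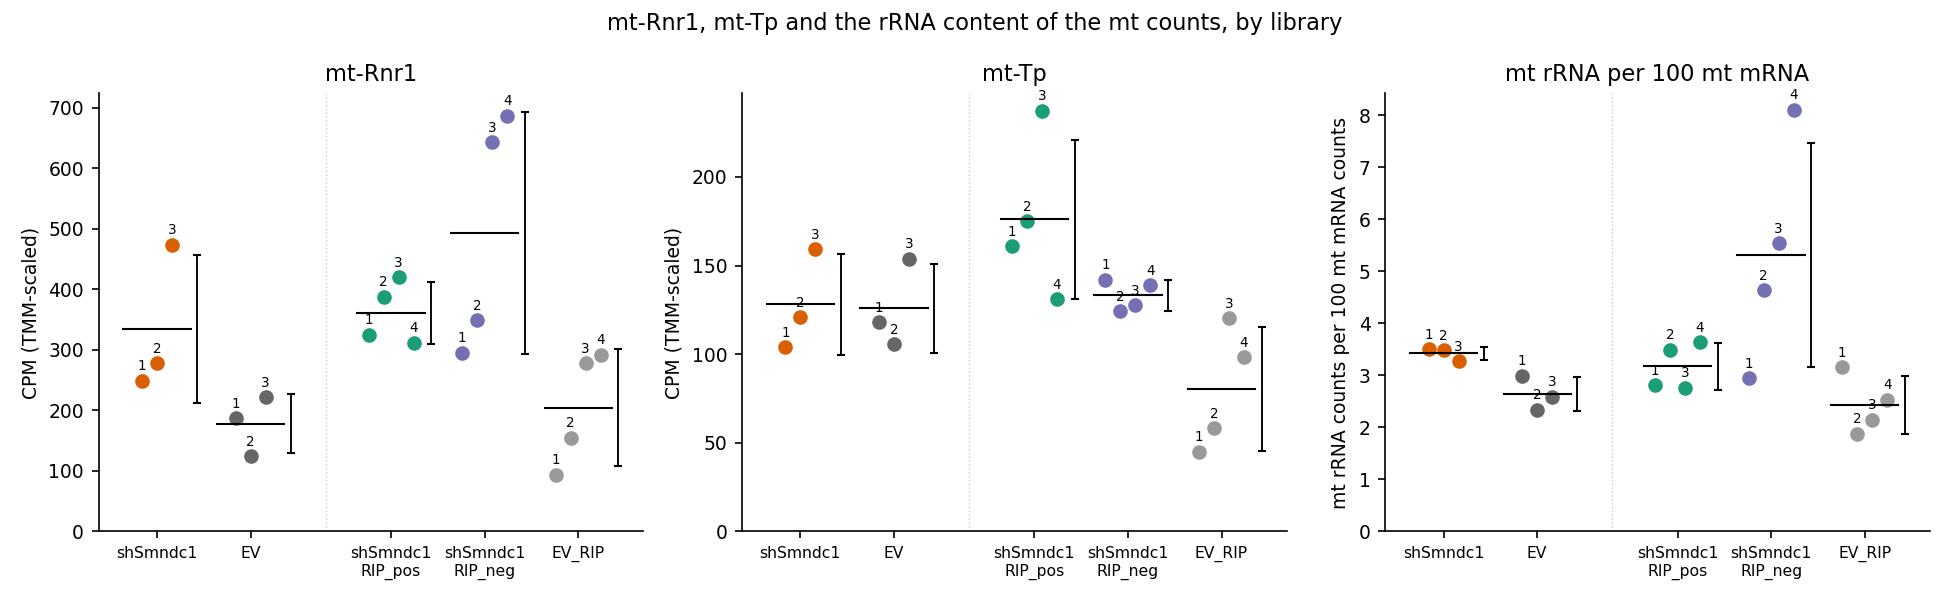
CPM of mt-Rnr1 and mt-Tp (left and middle) and mt rRNA counts per 100 mt mRNA counts (right), with 1 numbered point per library, a line at the group mean and a bar of 1 SD beside it. mt-Rnr1 in each group given the shRNA lies above its own empty-vector group, Smndc1 itself not being called lower in shSmndc1_RIP_neg, the mean of mt-Tp is highest in shSmndc1_RIP_pos, and the rRNA ratio spreads most in shSmndc1_RIP_neg, up to 8.10.

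Over all mitochondrial mRNA rows, the other ratios separated the groups in the first experiment only by rank. Mitochondrial tRNA stood at 0.672, 0.690 and 0.646 counts per 100 mRNA counts in shSmndc1, against 0.799, 0.725 and 0.808 in EV. mt-Nd6, the minus-strand mRNA, stood at 1.70, 1.77 and 1.84 counts per 100 counts of the other mRNAs in shSmndc1, against 1.99, 2.37 and 2.49 in EV. All knockdown libraries were below all controls in both ratios, with exact permutation p = 0.1 in each case, the smallest possible, and adjusted p of 0.229. Over the mRNAs without a near-identical copy, the groups overlapped in both ratios. The tRNA ratio was then at 1.34, 1.40 and 1.52 in shSmndc1, against 1.51, 1.48 and 1.53 in EV. The mt-Nd6 ratio was at 3.43, 3.66 and 4.45 in shSmndc1, against 3.81, 4.98 and 4.84 in EV. In the second experiment the groups overlapped in both ratios over all mRNA rows. There the mt-Nd6 ratio was lower in the positive than in the negative library in 4 of 4 pairs, for which the sign-flip test cannot go below 0.125. Over the mRNAs without a near-identical copy, the mt-Nd6 ratio was at 4.03, 3.35, 3.44 and 2.79 in positive cells. In negative cells it was then at 4.00, 3.34, 3.72 and 3.13, so this order held only in pairs 3 and 4. EV_RIP replicate 1 had the highest tRNA ratio of all libraries, 0.980, against 0.489 to 0.599 in the other EV_RIP libraries. Without it the tRNA ratio was higher by 0.231 in positive cells and by 0.253 in negative cells than in EV_RIP (exact permutation p = 0.0286 for each, before adjustment and the smallest possible).

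The nuclear genes that copy, transcribe, process and degrade mitochondrial RNA and DNA gave the last view, through a list of 56 genes. In shSmndc1 against EV, 1 was called higher and 7 lower, where 7.22% of all genes were called higher and 7.5% lower, and the median log2 fold change of the list was -0.10. Nsun3, which methylates the mitochondrial methionine tRNA, fell by 1.21, and Gtpbp3, which modifies tRNA wobble bases, fell by 0.79 on the log2 scale (adjusted p = 0.0134 and 0.0149, edgeR). Prorp, the nuclease of mitochondrial RNase P, fell by 0.57, and Rexo2, an oligoribonuclease, fell by 0.54 (adjusted p = 0.0323 and 0.0366). Top1mt, the mitochondrial topoisomerase, fell by 0.61 (adjusted p = 0.0150). The gene higher was Pprc1, a coactivator of the PGC-1 family, at 0.63 (adjusted p = 0.0168, edgeR). Outside the 6 with the smallest p, Tfam, which packages and transcribes mitochondrial DNA, fell by 0.49, and Atad3a, a nucleoid-associated ATPase, fell by 0.44 (adjusted p = 0.0367 and 0.0428, edgeR). None of the 56 was called without EV replicate 2 or without EV replicate 3, and 1 without shSmndc1 replicate 2, fits in which 550, 181 and 627 of all genes were called.

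In positive cells against EV_RIP, 3 of the 56 were called higher and 6 lower, where 8.47% of all genes were called higher and 8.92% lower. Rexo2 fell by 0.66, Grsf1, an RNA-binding protein of mitochondrial RNA granules, by 0.56, and Gtpbp3 by 0.66 on the log2 scale (adjusted p = 0.00621, 0.0130 and 0.0236, edgeR). Pprc1 was higher by 0.55 and Trmt10c, the methyltransferase subunit of mitochondrial RNase P, by 0.61 (adjusted p = 0.0176 and 0.0216). Top1mt fell by 0.40 (adjusted p = 0.0274). In negative cells against EV_RIP, 5 were called higher and 1 lower, where 8.17% of all genes were called higher and 5.69% lower. The lower one was Rexo2, which fell by 0.50 (adjusted p = 0.0271, edgeR). Those higher were Trit1, a tRNA modifying enzyme, at 0.65, Trmt10c at 0.65, Pprc1 at 0.55, Gabpb1, a subunit of nuclear respiratory factor 2, at 0.58, and Tfb2m, a transcription initiation factor, at 0.49 (adjusted p between 0.0153 and 0.0390, edgeR). Without EV_RIP replicate 1 the calls came to 3 in positive cells (1 higher and 2 lower) and 1 in negative cells. In positive cells they came to 2 without positive replicate 2 and 4 without EV_RIP replicate 3. In negative cells they came to 2 without negative replicate 3 or without EV_RIP replicate 3, and 0 without negative replicate 2 or 4. Calls over all genes dropped in each of these fits as well. In negative cells they fell to 304 higher and 88 lower without negative replicate 2, and to 127 and 32 without negative replicate 4. In positive cells they fell to 646 higher and 612 lower without positive replicate 2, and to 755 and 810 without EV_RIP replicate 1. The polymerase Polrmt and Lrpprc, which stabilises mitochondrial mRNAs, were not called in any of the 4 unpaired comparisons. In the paired fit of positive against negative cells, 3 of the 56 were called lower and none higher, where 4.72% of all genes were called lower and 3.71% higher. These were Grsf1, Atad3a and Gabpb1, with log2 fold changes of -0.38, -0.34 and -0.40 (adjusted p = 0.0231, 0.0311 and 0.0417, edgeR).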

How the data were processed

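Raw counts per gene were deposited by the authors in 1 table for each experiment, as whole numbers with no scaling. The authors also deposited FPKM values, used here only to check that they follow from the counts. The submitters' processing notes name STAR (2.7.5a), Picard (2.19.2), DESeq2 (1.30.0) and the build GRCm38/mm10. The counting program is not given in the sources used here. Every column was matched to a sample. Depth is the total count of a library, from 8084574 to 103048766, and intervals cover counting error only.

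Low genes were removed with filterByExpr. The 6 libraries of experiment 1 and the 12 of experiment 2 were then fitted separately in edgeR 4.0.16 under R 4.3.3, with TMM scaling, its quasi-likelihood test and Benjamini-Hochberg adjustment over all genes tested. The fit was first tested on simulated data. Alternatives were DESeq2 1.42.0, other scalings, no filter, a replicate block and each library left out. Adding nuclear copies (also with each library left out), leaving out negative replicates 3 and 4, and the paired fit of 2 groups were chosen after seeing the data, and the paired fit was not repeated without single libraries. Shares and ratios were compared by exact two-sided permutation over libraries. Transcripts of GENCODE M21 (GRCm38) were searched with blastn 2.17.0, since no genome sequence was used here, so unannotated copies were not searched. All 44 member and copy genes have the same coordinates there, and the printed sequences come from these transcripts.

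Named were every mt mRNA and rRNA, the 3 tRNAs with most counts per base, and up to 6 called genes of the maintenance list per comparison. Tfam, Atad3a, Polrmt, Lrpprc and mt-Ty were added after their values were seen. Members and lists were chosen with earlier results of these data known. Replicate numbers of positive and negative cells were taken as pairs because all 4 same-number correlations over 10121 genes were above 0.1. The other marker lists summed, per library, to at most 71.9 raw CPM for duct, 32.3 for leukocyte, 4.38 for endothelial, 3.37 for epsilon, 2.23 for acinar, 0.990 for fibroblast and 0.379 for delta markers.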

Additional observations from a re-analysis of the deposited data

Results flagged for a closer look

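In groups of 4 libraries, a library was singled out where its gap to the nearest other library took up more of the range of its group than Dixon's 95% critical value. Of 114 groups of values, 5 met this, and chance alone gives about 1 in 20. All 5 were in negative cells. In negative replicate 3, the library with the fewest counts, the share of the 37 genes was 3.94%, against 2.99% to 3.11% in the other negative libraries. In the same library mt-Nd4 was at 4380 CPM, against 2926 to 3133, mt-Cytb at 6907 CPM, against 4632 to 5010, and mt-Te at 37 CPM, against 18.3 to 20.2. In negative replicate 1, Gm10925, the nuclear copy of mt-Atp6, was at 13498 CPM, against 6540 to 7623 CPM in the other negative libraries.

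EV_RIP replicate 1 was not singled out by this rule in any value tested, since the other 3 EV_RIP libraries were themselves spread out.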

How the results depend on the processing

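The calls on mitochondrial genes were few and moved with the settings; the cause was not tested. Calls over all genes under the same settings follow in the next paragraph. In shSmndc1 against EV, 2 of 31 tested were called with no filter on low counts, 1 with a replicate block and 1 by DESeq2. In negative cells against EV_RIP, 3 were called with total counts as scaling, 4 of 32 tested with no filter, 4 with the block and 3 by DESeq2. There were 0 with only the 2 groups, without negative replicates 3 and 4, or with nuclear copies added and no EV_RIP replicate 1. In positive cells against EV_RIP, 3 of 32 tested were called with no filter, 4 with the block, 2 by DESeq2 and 2 with copies added and no EV_RIP replicate 1. Calls gained were mostly mt-Rnr1, mt-Rnr2, mt-Tp and mt-Ty, the tyrosine tRNA. In positive against negative cells, 2 were called with the block and only the 2 groups. The numbers of EV_RIP and of the first experiment did not meet the rule used for pairing.

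Over all genes, shSmndc1 against EV had 4165 calls with no filter and 4070 by DESeq2, and 1343 higher and 1470 lower with the block. Negative cells against EV_RIP had 4597 with the block, 1289 with only the 2 groups, 4 without negative replicates 3 and 4, and 540 with copies added and no EV_RIP replicate 1. They had 2234 higher and 1619 lower by DESeq2, 2111 and 667 with total counts as scaling, and 1829 and 1700 of 36824 genes with no filter. Positive cells against EV_RIP had 5079 with the block and 1567 with copies added and no EV_RIP replicate 1. They had 2269 higher and 2176 lower by DESeq2, and 1414 and 1940 of 36824 genes with no filter. Positive against negative cells had 150 with no filter, 78 with the block, 292 by DESeq2 and 1517 with the block and only the 2 groups. The difference of knockdown effects had 5 with no filter and 5 by DESeq2.

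Leaving out 1 library at a time, mitochondrial calls ranged from 0 to 3 for shSmndc1 against EV, 0 to 2 for negative and 1 to 2 for positive cells against EV_RIP, and calls over all genes from 181 to 3336, 159 to 5831 and 1258 to 3586, and from 0 to 517 for positive against negative cells. The lowest of these were without EV replicate 3, negative replicate 4 and positive replicate 2, and the highest for negative cells and for positive against negative cells were without negative replicate 1. All settings that add nuclear copies or leave out negative replicates 3 and 4, and the block with only the 2 groups, were chosen after seeing the data. The share difference ranged from -0.334 to 0.825 points for shSmndc1 against EV and from -0.137 to 0.995 for negative cells against EV_RIP. With copies added it turned to -0.198 without shSmndc1 replicate 3 and to -0.614 for negative cells without EV_RIP replicate 1, and positive over negative cells was 1.74 without positive replicate 4 (exact permutation p = 0.0286, the smallest possible). The rRNA ratio difference ranged from 1.94 to 3.66 for negative and 0.564 to 0.990 for positive cells against EV_RIP, and from -2.92 to -1.20 for positive against negative cells. The tRNA ratio difference ranged from 0.0891 to 0.253 for negative and 0.0670 to 0.231 for positive cells against EV_RIP, and the mt-Nd6 ratio difference of positive cells against EV_RIP from -0.141 to 0.273, with -0.0145 without EV_RIP replicate 1 and -0.0153 without positive replicate 1. The share of the rRNAs alone was lower in positive than negative cells, at -0.0471 points, and the tRNA ratio over mRNAs without a near-identical copy turned to 0.0458. Of 2281 alternative values for single mitochondrial genes, 2243 kept their side of the threshold, 31 passed it newly and 7 lost it; no called gene changed sign. With 3 or 4 libraries a group and wide intervals, a change short of the threshold was not detectable here, which does not show that it is absent.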
